A study of Mus musculus with 6 samples.

Results

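S100a8, Trem1, Csf3r, Csf3, Mmp9 and Fpr2, a set of genes of mature neutrophils and of the growth factor that makes them, were followed in mouse oral tumours after agonistic anti-CD40. The 6 symbols were given as a list, all 6 were found in the deposited table, and they are 6 of its 770 genes. The tumours were oral squamous cell carcinomas induced in mice by 4NQO, a chemical carcinogen that forms DNA adducts, and RNA came from formalin-fixed, paraffin-embedded primary tumours. Both groups carried such tumours: 3 samples were labelled vehicle and 3 agonistic anti-CD40, an antibody that activates the CD40 receptor of antigen-presenting cells. The sources used here do not give mouse strain, age, dose, schedule or time of sampling. Whether each sample is another animal is not stated either, and the p-values therefore rest on the spread among the samples as labelled, part of which may be technical.

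Neutrophils are made in bone marrow under granulocyte colony-stimulating factor (G-CSF, encoded by Csf3), which acts through its receptor on the granulocyte lineage (Csf3r). Granule genes are transcribed mostly in marrow precursors, whereas mature cells in tissue carry receptors such as TREM-1 and the formyl peptide receptors and hold large amounts of the calcium-binding protein S100A8. In carcinomas, neutrophils are also a source of the matrix protease MMP9. S100a8 is also made by stressed squamous epithelium and Mmp9 by macrophages and other stromal cells, so neither gene marks neutrophils alone in a squamous tumour.

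The RefSeq table of mouse promoters (GRCm38.p6) held 4 of the 6 genes, S100a8, Csf3r, Trem1 and Fpr2, and not Csf3 and Mmp9. The 180 bases before each start are shown because these genes shared their lowest 2 libraries and their highest library (below), 5′ to 3′ on the + strand, which is the gene's strand in all 4. Capitals mark matches to 3 motifs, searched on both strands in the 250 bases before the start: GAGGAA, the core bound by the myeloid factor PU.1; TTNNGNAA, a loose form of the site of C/EBP factors, which drive granulocyte genes; and TATAAA, the TATA box.
S100a8, chr3:90668891-90669070: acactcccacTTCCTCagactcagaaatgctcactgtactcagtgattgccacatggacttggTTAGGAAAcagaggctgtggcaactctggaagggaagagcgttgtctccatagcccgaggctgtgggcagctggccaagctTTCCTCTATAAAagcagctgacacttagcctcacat
Csf3r, chr4:126024479-126024658: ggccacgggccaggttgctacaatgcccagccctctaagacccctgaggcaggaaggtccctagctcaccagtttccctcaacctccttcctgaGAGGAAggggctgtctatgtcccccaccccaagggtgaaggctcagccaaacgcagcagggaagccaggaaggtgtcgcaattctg
Trem1, chr17:48232559-48232738: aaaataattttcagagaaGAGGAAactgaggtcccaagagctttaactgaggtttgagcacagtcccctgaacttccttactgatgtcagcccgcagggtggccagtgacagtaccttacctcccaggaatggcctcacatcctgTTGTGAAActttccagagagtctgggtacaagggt
Fpr2, chr17:17887644-17887823: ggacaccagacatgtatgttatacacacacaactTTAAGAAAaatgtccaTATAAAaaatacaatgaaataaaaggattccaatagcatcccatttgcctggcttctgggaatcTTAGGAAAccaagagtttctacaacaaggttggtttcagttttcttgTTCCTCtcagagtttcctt

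GAGGAA was present in all 4 of these promoters, beside 23.3% of the 32851 promoters in the table. TTNNGNAA was present in 3 of 4 (36.8% of all promoters), in S100a8, Trem1 and Fpr2. The TATA motif lay in S100a8, 30 to 25 bases before the start and directly after a GAGGAA match on the opposite strand. It also lay in Fpr2, but farther off, 130 to 125 bases before the start (12.4% of all promoters held the motif). Csf3r matched none of the motifs but GAGGAA, 86 to 81 bases before its start. No matches overlapped. These matches describe letters only, and no binding or promoter activity was measured.

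The comparison asked how these genes differ between tumours of vehicle-treated and anti-CD40-treated mice. Values are log2 normalized counts as deposited, and differences are anti-CD40 minus vehicle. Of the 6 genes, 5 had the higher mean in anti-CD40 samples, beside 54.5% of all 770 genes, and S100a8 had the lower. That count was 0 of 6 without anti-CD40 2 and 3 of 6 without vehicle 3. No difference exceeded the spread within groups: limma with Benjamini-Hochberg adjustment over 770 genes called 0 of the 6 (0% of all genes called), 0 of the 6 had an unadjusted p under 0.05 (3.25% of all genes, 25 genes), and limma-voom also called 0 genes. The groups overlapped for each of the 6, whereas they did not overlap for 10.3% of all genes. The median difference was 0.26 for the 6 genes and 0.038 for all genes. The spread inside each group was wide for these genes: the median within-group SD was 0.9998, beside 0.39 over all genes, and S100a8 ranked 23 of 770 by this measure, Mmp9 28, Csf3r 29, Fpr2 42, Trem1 138 and Csf3 157.

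**Figure D1:**
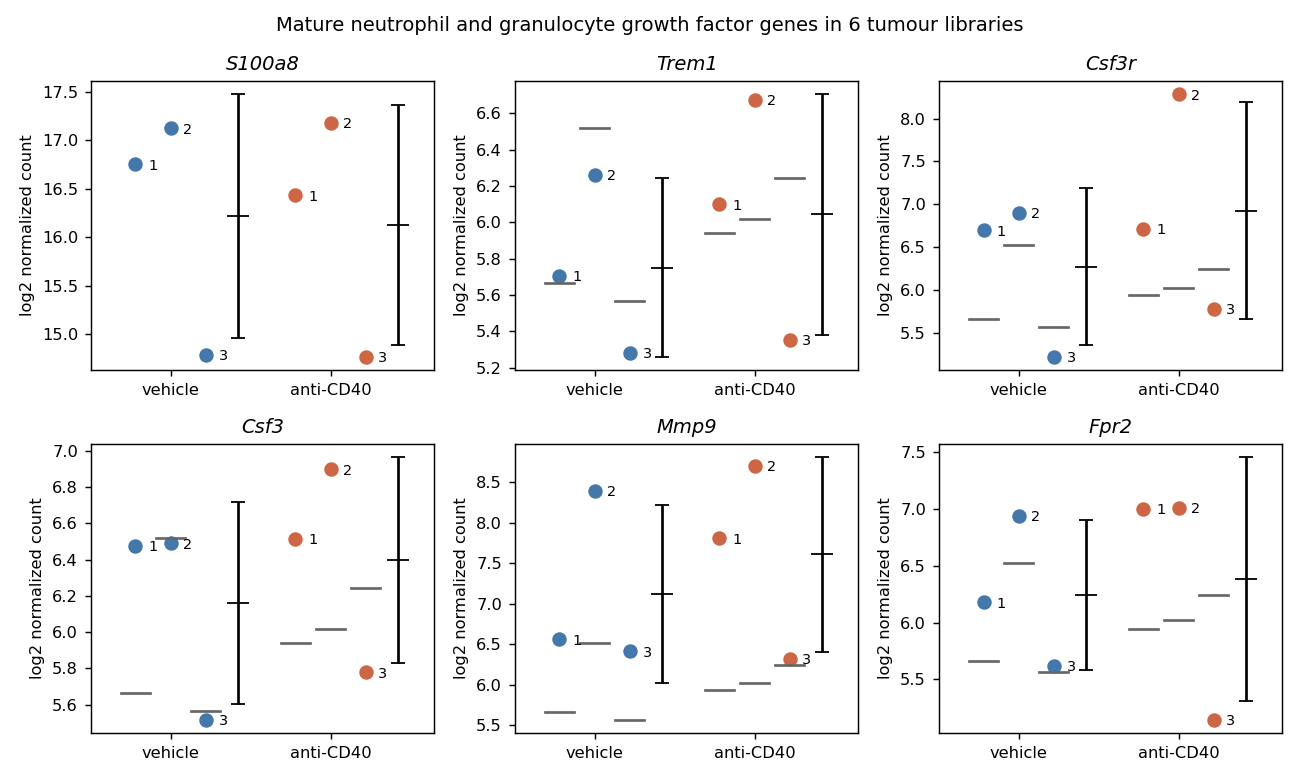
Log2 normalized counts (y axis, a separate range per gene) of the 6 genes in 3 vehicle (blue) and 3 anti-CD40 (orange) libraries, numbered by replicate, with black bars for mean ± SD and grey ticks for each library's background limit (not drawn for S100a8, which lies far above it). Replicate 3 is the lowest point of both groups in every panel, and anti-CD40 replicate 2 the highest point of all.

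Recovered whole counts summed to between 333400 and 578598 per library over the 770 genes. The background limit, the mean of 8 negative controls plus 2 SD, lay at 24.7 to 26.6 counts, which is 5.57 to 6.52 on the log2 scale after each library's scaling and was highest in vehicle 2. S100a8 and Mmp9 were above it in all 6 libraries, Fpr2 in 5, Csf3r in 4 and Trem1 and Csf3 in 3 each. Among all genes, 523 exceeded it in each of the 6 libraries. Among 7 squamous epithelial genes measured, 6 exceeded the limit in every library, including the E-cadherin gene Cdh1 (11.94 to 12.51) and the integrin gene Itga6 (11.66 to 13.38), as the carcinoma label implies. The other, the mucin gene Muc1, was above it in 5 libraries and at 6.49 in vehicle 2, just under its limit of 6.52.

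S100a8 encodes a calcium-binding protein that forms calprotectin with S100A9 and is released as a danger signal. It was 16.75, 17.12 and 14.79 in vehicle 1, 2 and 3 and 16.43, 17.18 and 14.77 in anti-CD40 1, 2 and 3. Within each group 1 library, the third, lay more than 1.5 log2 below the others, and the low values of both groups were almost equal, as were the high ones. Group means were 16.22 ± 1.25 and 16.13 ± 1.23 (SD, n = 3 each), a difference of −0.095 with a 95% interval from −1.91 to 1.71 (SE 0.77, limma adjusted p = 0.988, exact permutation p = 0.9, two-sided). The sign turned without vehicle 1 (0.17), vehicle 2 (0.35) or anti-CD40 3 (0.58), and without vehicle 3 the difference was −0.81. Recovered S100a8 counts ran from 9963 in anti-CD40 3 to 60772 in anti-CD40 2. As a share of all gene counts, S100a8 took 10.4%, 12.2% and 3.38% with vehicle and 7.76%, 13.7% and 2.99% with anti-CD40. The 95% Wilson intervals of these shares were at most 0.214 percentage points wide and cover counting error only. Group means of the share were 8.64% ± 4.64 and 8.13% ± 5.34 (SD, n = 3 each). The share was thus lowest in the third library of each group.

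Trem1 encodes a receptor of neutrophils and monocytes that amplifies inflammatory responses through the adaptor DAP12. Its values were 5.71, 6.26 and 5.28 in vehicle 1, 2 and 3 and 6.10, 6.68 and 5.35 in anti-CD40 1, 2 and 3, from recovered counts of 26, 22, 20, 28, 40 and 13. Only vehicle 1, anti-CD40 1 and anti-CD40 2 exceeded the background limit, and vehicle 2 ranked above vehicle 1 on the scaled values although its count was lower. Means were 5.75 ± 0.49 and 6.04 ± 0.66 (SD, n = 3 each), a difference of 0.29 with a 95% interval from −0.65 to 1.23 (limma adjusted p = 0.974, exact permutation p = 0.6). The difference was −0.023 without anti-CD40 2 and −0.068 after background subtraction.

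Fpr2 encodes a formyl peptide receptor, which directs neutrophils to bacterial and mitochondrial peptides and also binds the resolving protein annexin A1. Levels were 6.18, 6.94 and 5.62 in vehicle 1, 2 and 3 and 7.001, 7.01 and 5.14 in anti-CD40 1, 2 and 3. Anti-CD40 3 was the lowest library, with 11 recovered counts against 26 to 54 in the 5 others, and the only one not above background. Vehicle 3 was above it only narrowly, with 26 counts against a limit of 24.96. Group means of 6.25 ± 0.66 and 6.39 ± 1.08 (SD, n = 3 each) differed by 0.14, with a 95% interval from −1.20 to 1.48 (limma adjusted p = 0.974, exact permutation p = 0.8). Without vehicle 3, anti-CD40 1 or anti-CD40 2 the difference was −0.17 in each case. Without anti-CD40 3 it was 0.76 and the groups did not overlap, by a margin of 0.062. The share of all genes without overlap was not computed for that setting.

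Csf3r encodes the G-CSF receptor, carried by granulocytes and their precursors. It was 6.70, 6.90 and 5.22 in vehicle 1, 2 and 3 and 6.72, 8.29 and 5.78 in anti-CD40 1, 2 and 3, an 8.39-fold range of normalized values across the 6 libraries, the widest of these genes. Anti-CD40 2 stood clear of the others with 126 recovered counts, beside 18 to 54 elsewhere, and the third libraries lay under the background limit. Means were 6.27 ± 0.92 and 6.93 ± 1.27 (SD, n = 3 each). Their difference, 0.66, was the largest of the 6 genes, with a 95% interval from −0.97 to 2.28 (SE 0.69, limma adjusted p = 0.974, exact permutation p = 0.5). It rested on anti-CD40 2: without that library it was −0.023. It was 0.13 without vehicle 3 and 1.23 without anti-CD40 3.

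Csf3 encodes G-CSF itself, the ligand of that receptor, made by stromal, epithelial and myeloid cells on stimulation. Its values were 6.48, 6.49 and 5.52 with vehicle and 6.52, 6.90 and 5.78 with anti-CD40, from 18 to 47 recovered counts. The ligand and its receptor ranked the third libraries last and anti-CD40 2 first. Vehicle 2, vehicle 3 and anti-CD40 3 were not above background for Csf3. Means of 6.16 ± 0.56 and 6.398 ± 0.57 (SD, n = 3 each) differed by 0.24, with a 95% interval from −0.68 to 1.15 (limma adjusted p = 0.974, exact permutation p = 0.5). The difference was −0.085 without vehicle 3 and −0.013 without anti-CD40 2. Without anti-CD40 3 it was 0.55 and the groups did not overlap, by 0.026, again with no share over all genes computed.

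Mmp9 encodes gelatinase B, a protease stored in neutrophil granules that cleaves denatured and basement membrane collagens. It was 6.56, 8.39 and 6.41 in vehicle 1, 2 and 3 and 7.81, 8.70 and 6.32 in anti-CD40 1, 2 and 3, and above background in all of them, narrowly so in anti-CD40 3 with 27 counts. Unlike S100a8, Mmp9 was low in vehicle 1, where it lay close to vehicle 3. Group means were 7.12 ± 1.10 and 7.61 ± 1.20 (SD, n = 3 each), a difference of 0.49 with a 95% interval from −1.20 to 2.18 (limma adjusted p = 0.974, exact permutation p = 0.7). The sign turned without anti-CD40 2 (−0.057), and the difference was 1.12 without vehicle 2 and 1.13 without anti-CD40 3.

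**Figure D2:**
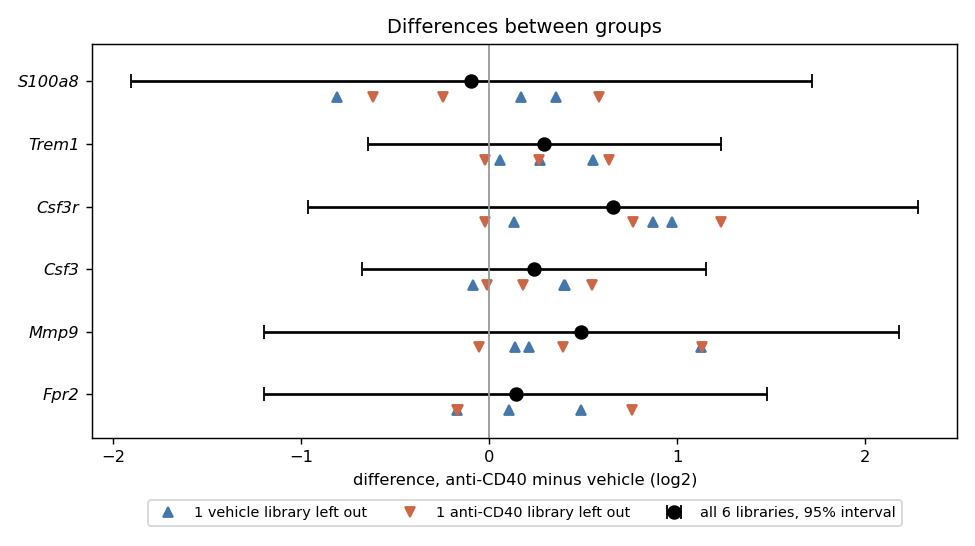
Differences between groups on the log2 scale (x axis, anti-CD40 minus vehicle) with limma's 95% intervals (black), and the same differences with 1 vehicle library (blue) or 1 anti-CD40 library (orange) left out. Every interval spans 0, and each gene has at least 1 left-out library that puts its difference on the other side of 0.

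All 6 genes had the same highest library and the same pair of lowest libraries. Vehicle 3 and anti-CD40 3 were the lowest 2 libraries for 6 of 6 genes, against 16.5% of all 770 genes, and anti-CD40 2 was the highest for 6 of 6, against 18.3% of all genes. Both held together for 4.16% of all genes, 32 in number. For Trem1, Csf3r and Csf3, neither vehicle 3 nor anti-CD40 3 was above the background limit, and for Fpr2 anti-CD40 3 was not. S100a8 and Mmp9, the 2 genes above the limit in all 6 libraries, both had this low pair and this high library. Among the 523 genes above the limit in all 6 libraries, 14.1% had the low pair, 13.2% the high library and 2.49% both. The 6 were chosen with results of these data known, so these counts describe the list and carry no test. With quantile normalization 4 of 6 kept the low pair and 4 of 6 the high library, S100a8 being 1 of the exceptions in each, and the shares over all genes fell to 4.42% and 11.4%. S100a8 ranked 1 or 2 among the genes of every library, so that normalization leaves it only 2 different values. Vehicle 3 and anti-CD40 3 then tie with anti-CD40 1, and anti-CD40 2 ties with vehicle 1 and vehicle 2. S100a8 is thus an exception only by the order in which ties were broken. With housekeeping scaling 6 of 6 kept the low pair and 6 of 6 the high library (13.5% and 19.6% of all genes). After background subtraction 6 of 6 kept the low pair and 5 of 6 the high library, with Fpr2 slightly higher in anti-CD40 1 (11.6% and 16.9% of all genes). In unscaled recovered counts the lowest library was anti-CD40 3 for all 6 genes, and that library also had the smallest total count. Anti-CD40 2 had the highest count for all but Fpr2, which had 54 counts in anti-CD40 1 and 51 in anti-CD40 2. The median log2 value over all 770 genes had the same ends as the 6 genes: it was 8.17, 8.18 and 7.68 in vehicle 1, 2 and 3 and 7.99, 8.19 and 7.90 in anti-CD40 1, 2 and 3. Genes above background were also most numerous in anti-CD40 2 (649) and fewest in anti-CD40 3 (548), with 586 to 633 in the others. Total counts did not have these ends, since vehicle 3 had 488585 and anti-CD40 2 had 445159. The part of these library-wide differences in the order of the 6 genes was not tested. In bulk tumour RNA, fewer cells of a type and less RNA per cell cannot be told apart.

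**Figure D3:**
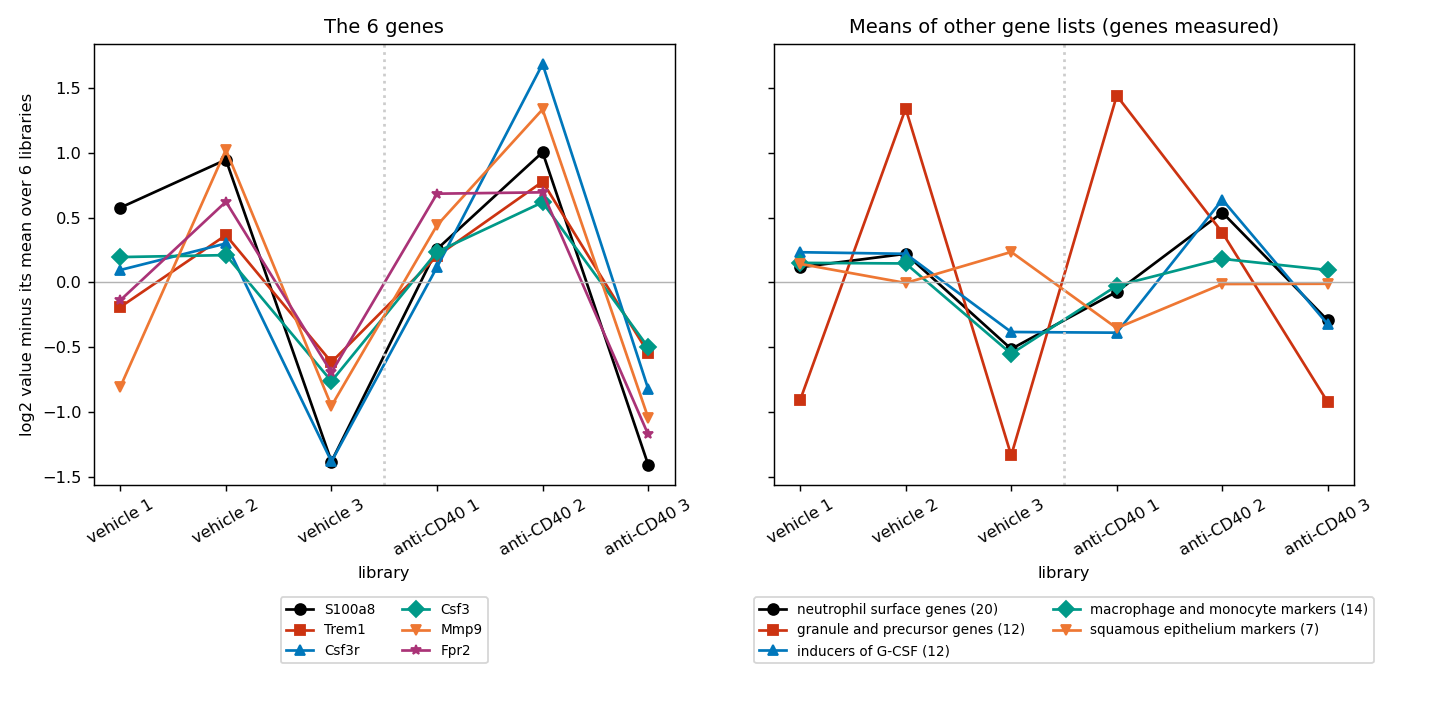
Log2 values minus their own mean over the 6 libraries (y axis) for the 6 genes (left) and for the means of 5 other gene lists, with the number of genes measured (right); lines only join the points of 1 gene or list. At left every line dips at the third library of both groups and peaks at anti-CD40 2, whereas the granule and precursor list peaks at vehicle 2 and anti-CD40 1 and is low in vehicle 1.

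Likeness to other genes was measured as the root mean square distance between mean-centred log2 profiles over the 6 libraries, among genes above background in at least 3 of them. The nearest to S100a8 were Spp1, the osteopontin gene (0.41), the acute phase gene Saa1 (0.47) and Fpr2 (0.49). Trem1 lay nearest to the lymphotoxin gene Ltb (0.16), to Clec5a, a DAP12-coupled lectin receptor of myeloid cells (0.19), and to Csf3 (0.19). Csf3 lay nearest to Ncf4, a subunit of the phagocyte NADPH oxidase (0.10), then to Clec5a (0.16) and Trem1 (0.19). For Csf3r the nearest was Cxcr2, the main chemokine receptor of neutrophils (0.42), followed by H2-Q10 (0.42) and Il17f (0.45), and for Fpr2 they were Ceacam1 (0.31), Clec5a (0.33) and the adenosine receptor gene Adora2a (0.33). The nearest to Mmp9 were the B cell genes Ms4a1 (0.35) and Pou2af1 (0.39) and the collagen gene Col1a1 (0.43). Clec5a appeared for 3 of the 6 genes. Such distances favour genes with a similar size of change, and near background they also carry the libraries' unequal scaling.

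Other receptor and adhesion genes of neutrophils, counted together with the IL-1 receptor antagonist gene Il1rn, shared this order in part. Of 20 measured genes on that list, 13 were higher and 7 lower in the anti-CD40 mean, 0 were called, and the median difference was 0.12. Anti-CD40 2 was the highest library for 10 of the 20 and the third libraries were the lowest 2 for 6. Cxcr2, the nearest in profile to Csf3r, was 7.01, 7.09 and 6.35 with vehicle and 7.26, 8.19 and 6.68 with anti-CD40. Itgam, which encodes CD11b, was 8.98, 9.33 and 7.96 beside 9.03, 9.53 and 8.96. The groups did not overlap for 2 of the 20, C5ar1 and Tlr4, beside 10.3% of all genes. C5ar1, the C5a receptor, did not share the order of the libraries: anti-CD40 3 was at 8.69 beside 8.92 and 8.85 in the other anti-CD40 libraries. Ccr1, Il1rn and Clec7a, the next by p, differed by 0.58, −0.66 and −0.77 with overlapping groups.

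Granule and precursor genes were mostly highest in other libraries, while the third libraries were the lowest 2 for 5 of the 12 measured. Of these 12, 11 were higher and 1 lower in the anti-CD40 mean, 0 were called, and the median difference of 0.64 was 0.013 to 1.17 with 1 library left out. Camp, which encodes the cathelicidin that is a ligand of formyl peptide receptor 2, was below background at 4.27 in vehicle 1, where S100a8 was 16.75, and at 11.17 in anti-CD40 1, where S100a8 was 16.43. Mpo, the myeloperoxidase gene, picked after its values were seen, was likewise 5.55 in vehicle 1 and 9.57 and 9.43 in vehicle 2 and anti-CD40 1. Anti-CD40 2, the highest library for S100a8, Trem1, Csf3r, Csf3, Mmp9 and Fpr2, was the highest for 1 of the 12 granule and precursor genes, Ncf4. Lcn2, which encodes a protein of secondary granules that is also made by epithelium, was 10.62, 9.84 and 7.79 with vehicle and 10.88, 10.55 and 9.05 with anti-CD40, with the third libraries lowest.

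The other growth factors of the colony-stimulating family and their receptors did not share the full order. Of 11 measured, 8 were higher and 3 lower and 0 were called. The third libraries were the lowest 2 for 0 of them, beside 16.5% of all genes. Anti-CD40 2 was the highest library for 3, beside 18.3% of all genes. Of the 11, 3 were above background in no library. Csf2, which encodes GM-CSF, was at or below background in every library (5.0005 to 5.60). Csf2rb, the shared receptor chain, was 8.92, 8.66 and 7.99 beside 8.34, 9.25 and 8.72, and Csf1, the macrophage growth factor gene, differed by 0.41 (SE 0.29, limma adjusted p = 0.974). Flt3, the progenitor receptor gene, had the lowest p of the list, with a difference of −0.75. Of 13 genes of signalling below the G-CSF receptor, 9 were higher and 4 lower, 0 were called, and the median difference was 0.12. Stat3, the main transcription factor of that pathway, was 11.92, 11.51 and 11.38 beside 11.97, 11.87 and 11.86, and its feedback inhibitor gene Socs3 was 8.60, 7.97 and 7.30 beside 7.65, 8.26 and 8.49. Neither was low in anti-CD40 3, where Csf3 and Csf3r were below the background limit.

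Genes of cytokines known to induce G-CSF were counted together with the receptor genes Il17ra and Il1r1. These 12 split evenly, 6 higher and 6 lower, with 0 called and a median difference of 0.014. Il17ra and Il1r1 were among the 6 higher, with differences of 0.32 and 0.25. Anti-CD40 2 was the highest library for 7 of the 12, Il17ra included, and the third libraries were the lowest 2 for 5. Il1b was 9.48, 9.01 and 7.996 with vehicle and 6.84, 10.18 and 7.28 with anti-CD40, so it was high with Csf3 in anti-CD40 2 and low in anti-CD40 1, where Csf3 was not. Il17a was 5.94, 6.13 and 5.57 beside 4.89, 6.71 and 5.25, above background in 3 libraries, and Il17f was 7.41, 6.94 and 6.29 beside 6.87, 8.29 and 6.76. Of 9 neutrophil-attracting and related chemokines, 4 were higher and 5 lower and 0 were called. The groups did not overlap for 2, Ccl9 and Ccl4, beside 10.3% of all genes. Ccl9, which encodes a CC chemokine of myeloid cells, had the lowest p and was 10.19, 10.71 and 9.58 with vehicle and 11.22, 11.06 and 11.83 with anti-CD40, a difference of 1.21 (SE 0.36, limma adjusted p = 0.974). Ppbp, a chemokine gene of platelets, followed with a difference of 2.24 and overlapping groups. Both were highest in anti-CD40 3, where the 6 genes were low. Ccl4 was above background in 2 libraries and differed by −0.47. Cxcl1, with a difference of −1.13, was highest in vehicle 3 (8.67), a library where all 6 genes were low, and 6.48 and 6.72 in anti-CD40 1 and 3.

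Some partners of the other 4 genes were also measured, but S100a9, the DAP12 gene Tyrobp and the formyl peptide receptor gene Fpr1 were not. Of 10 genes of S100 and formyl peptide ligands and receptors, 7 were higher and 3 lower and 0 were called. Tlr4, a receptor for S100A8, ranged only from 8.96 to 9.40, and Anxa1, the annexin A1 gene, was 13.52, 13.66 and 13.49 beside 12.72, 13.99 and 12.97. Of 6 genes of the TREM family and the pathway below DAP12, 2 were higher and 4 lower and 0 were called, with Trem2, a macrophage relative of Trem1, at 6.64, 7.12 and 5.94 beside 6.05, 6.49 and 5.92 and the kinase gene Syk at 8.52, 9.27 and 8.19 beside 9.02, 9.07 and 8.67. Of 7 other matrix protease genes and their partners, with no other MMP gene among them, 3 were higher and 4 lower and 0 were called. Plau, which encodes urokinase, was highest in vehicle 3 (12.40), where Mmp9 was low.

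Markers of squamous epithelium, macrophages and fibroblasts were set beside the 6 genes. So were those of B cells, which are not named above as a source of S100a8 or Mmp9. Over 7 squamous epithelial genes, the list mean was 10.43 to 10.67 in vehicle and 10.08 to 10.43 in anti-CD40 libraries, highest in vehicle 3, a library with low S100a8. The mean of 14 macrophage and monocyte genes was 8.67, 8.67 and 7.97 with vehicle and 8.497, 8.70 and 8.62 with anti-CD40, lowest in vehicle 3 but not low in anti-CD40 3. The mean of 10 fibroblast genes was likewise lowest in vehicle 3 (10.89) and 11.34 to 11.48 in the 5 others. The 10 B cell genes, 0 of them above background in all libraries, averaged 5.28, 7.003 and 5.11 beside 6.18, 6.20 and 5.22, the same libraries being high as for Mmp9. No marker of these 4 lists was called. The part of these cells in the values of the 6 genes was not tested.

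**Figure D4:**
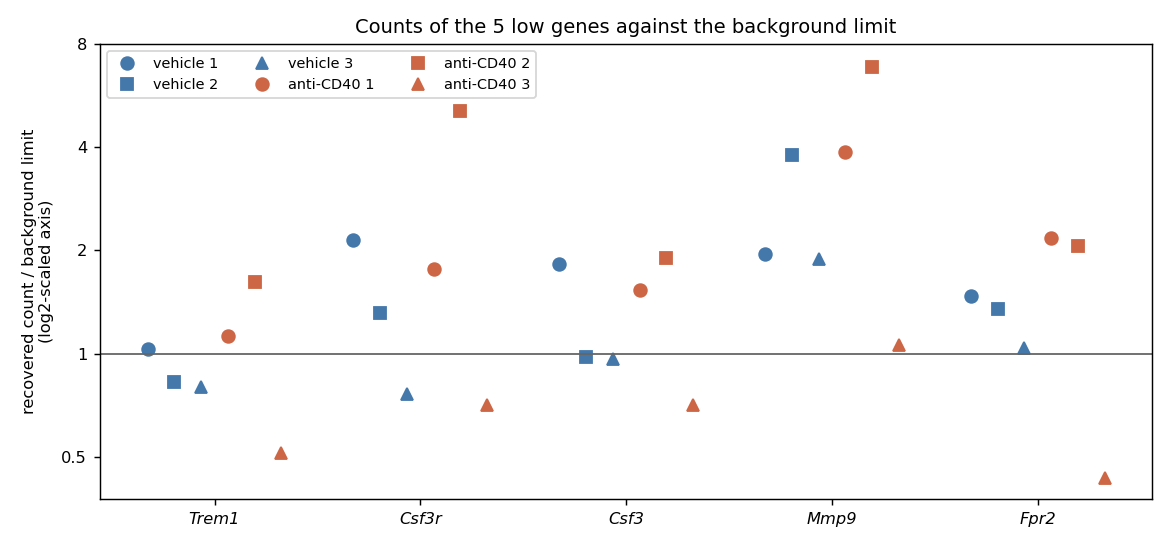
Recovered counts divided by each library's background limit (y axis, log2-scaled) for the 5 genes of low count in 3 vehicle (blue) and 3 anti-CD40 (orange) libraries, with the limit as a grey line at 1. Trem1 stays within 0.511 to 1.62 times the limit, Csf3 within 0.708 to 1.90, and only Mmp9 lies above the line in all 6 libraries.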

How the data were processed

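The table that the authors deposited holds log2 normalized counts, per the file name, for 770 genes, 6 positive and 8 negative control rows and 6 sample columns. The sources used here do not give the platform, counting software, normalization or genome build. Whole counts were recovered by subtracting 4.55 from the unlogged value and dividing by a factor per library (1.72 to 3.28), which left 4704 of 4704 values within 0.05 of a whole number. Counts over the negative controls' mean plus 2 SD were taken as above background.

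Groups were compared on the deposited log2 values of 770 genes, controls left out, with limma 3.58.1 in R 4.3.3 (lmFit and eBayes, two-sided, Benjamini-Hochberg, threshold 0.05), tested on simulated data. The smallest p of the exact permutation tests, with 3 samples per group, is 0.1. Python 3.11.15 with pandas 2.3.3 made the other tables and matplotlib 3.10.9 the figures. Alternatives were leaving out each library, the replicate number as a block, quantile and housekeeping scaling, a background filter, another pseudocount, background subtraction, limma-voom on recovered counts and trended or robust variance priors. Besides the 6 genes, the text names genes of pathway and cell type lists by lowest p (up to 4 per list), a written set of partner genes, and the 3 nearest profiles per gene; a few more are named as extremes of library order or of a list, chosen after their values were seen. Genes and lists were chosen with earlier results of these data known.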

Additional observations from a re-analysis of the deposited data

How the results depend on the processing

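No alternative called any of the 6 genes (lowest adjusted p 0.773, without vehicle 2), and limma called 0 of all genes in each of the 15 alternative fits. Of 90 recomputed differences, 77 kept their sign and 13 turned, 11 of them with 1 library left out. The replicate block, the background filter and the trended or robust priors leave each difference unchanged by construction. The signs kept under those settings therefore carry no information. With 1 library left out the differences ran from −0.81 to 0.58 for S100a8, −0.023 to 0.64 for Trem1, −0.023 to 1.23 for Csf3r, −0.085 to 0.55 for Csf3, −0.057 to 1.13 for Mmp9 and −0.17 to 0.76 for Fpr2. The number of genes higher in anti-CD40 samples then ran from 0 (without anti-CD40 2) to 6. The number whose groups did not overlap ran from 0 to 2 (without anti-CD40 3). Smaller groups overlap less readily, and the share over all genes was not computed for that setting. Background subtraction, with a floor of 1 count, turned Trem1 to −0.068 and Fpr2 to −0.49 and left 3 of 6 genes higher. It puts Trem1 and Fpr2 in anti-CD40 3 at the floor. The labels state no pairing by replicate number. Deviations from the group means of same-numbered samples correlated at −0.43, 0.069 and 0.28 over 770 genes. Those of differently numbered samples ran from −0.56 (vehicle 2 with anti-CD40 3) to 0.48 (vehicle 2 with anti-CD40 1). With 3 libraries per group these values depend on each other and cannot settle whether a pairing exists. With the replicate block, limma called 0 genes, the differences were the same by construction and Csf3r had the lowest p of the 6 (unadjusted 0.090, adjusted 0.964). Trem1, Csf3 and, in the third libraries, Csf3r and Fpr2 lie close to or below the background limit, so smaller differences would not be detectable there.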
